A study of Mus musculus with 12 samples.

Results

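The later phase of mRNA loss after a transcription block was followed in primary hepatocytes labelled Mettl3 cKO, by setting the 2 libraries collected after 6 h in actinomycin D against the 2 collected after 2 h. These are 4 of the 12 libraries of the series, chosen by their time and genotype labels alone, and the comparison covered every gene that passed a filter on low counts. The cells came from C57BL/6J mice of genotype Mettl3 flox/flox/Alb-Cre, in which Cre under the Albumin enhancer and promoter, inserted at the H11 locus, removes exons of Mettl3 in hepatocytes, while the other cells of the liver keep the gene. Control mice (WT in the labels) were littermates without this deletion. Hepatocytes were isolated by collagenase perfusion, kept overnight in serum-free medium and, in both genotypes, harvested 0, 2 or 6 h after 5 µM actinomycin D was added, with 2 replicates for each of the 6 combinations. The sources used here do not give the age of the mice or whether replicates, or the 2 h and 6 h cells, came from the same or from separate animals, so p-values measure only the spread between these libraries.

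Actinomycin D intercalates into DNA and stops RNA polymerases, so that the mRNAs present when it is added can only persist or decay. Mettl3 is the catalytic subunit of the complex that writes N6-methyladenosine (m6A) on mRNA, and m6A read by YTH-domain proteins is one of several marks that recruit the deadenylation machinery. AU-rich elements in the 3′ untranslated region (UTR) of growth-response and cytokine mRNAs are another. Hepatocyte mRNAs for secreted proteins and metabolic enzymes are known to be long-lived, whereas mRNAs for transcription factors and signalling regulators turn over quickly. In bulk RNA, counted as a share of the sequenced reads, an mRNA that outlasts the rest rises without being made.

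The 4 libraries held 18365556 and 18672429 reads counted in genes at 2 h and 18959125 and 19003495 at 6 h, within the range of 16952084 to 20914516 over all 12. Replicates were close, with a Spearman correlation of 0.997 in both groups and a median absolute difference between the 2 replicates of 0.099 on the log2 scale at 2 h and 0.097 at 6 h. Mettl3 itself was at 23.96 and 25.8 CPM at 2 h and 19.4 and 24.2 CPM at 6 h, in CPM (reads of the gene scaled to a common total of reads counted in genes). One of the 6 h libraries lay within the range at 2 h, and the log2 change of -0.19 (SE 0.11, adjusted p = 0.16) did not pass the threshold, though it did without the second 6 h replicate (-0.36). Control libraries held 24.2 and 25.5 CPM of Mettl3 at 2 h and 15.0 and 13.7 CPM at 6 h, below both Mettl3 cKO libraries of that time. The count takes reads from all exons, including those outside the deleted part, so it does not check the deletion. Another difference between the genotypes was steady over time. Sult2a1, a sulfotransferase of steroids and bile acids singled out after its values were seen, had 0 or 1 read in every Mettl3 cKO library and 329 to 471 reads in every Control library.

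Some loci were present at one time and all but missing at the other. Eno1b, an enolase gene that copies the glycolytic enzyme gene Eno1, had 844 and 921 reads in the Mettl3 cKO libraries at 2 h and 4 and 2 at 6 h, while the libraries of the other groups held at least 858. The annotated processed pseudogene Gm4735 (mm10, chr2:80837141-80838442) went from 341 and 312 reads to 4 and 10. In the other direction Gm21887 (chrX:170009659-170019281) went from 9 and 9 reads to 209 and 212, and the processed pseudogene Gm5345 (chr8:40853828-40855027) from 1 and 1 to 132 and 198. The 3 genes with a Gm name fall outside the rule for named genes and were singled out after their values were seen. These are the 4 loci with at least 100 reads in both libraries of one time and at most 10 in both of the other. Erdr1, annotated on chromosome Y in the shared region of the sex chromosomes and close in sequence to Gm21887, was at 35.2 and 33.04 CPM at 2 h and 11.97 and 10.4 CPM at 6 h. Rnaset2a, which encodes a secreted ribonuclease, was at 13.8 and 15.6 CPM at 2 h and 31.1 and 32.05 CPM at 6 h, while its near-identical neighbour Rnaset2b, singled out for that reason, was at 19.49 and 19.1 CPM at 2 h and 14.1 and 13.3 CPM at 6 h. Reads of such copies can be split between them by the unique alignment the counts rest on, and their changes are uncertain as measures of decay. All 4 Mettl3 cKO libraries carried Y-linked mRNAs, with 2561 to 2966 reads of Ddx3y and at most 1 read of Xist. The same held for Control at 2 h, but the Control 6 h libraries had 20246 and 16565 reads of Xist and at most 1 read of Ddx3y. Gm5345 also differed within Control, with 0 and 3 reads at 2 h and 50 and 48 at 6 h. Since Eno1b and the 3 other loci separate the Mettl3 cKO libraries of the 2 times, time in actinomycin D and the source of the cells cannot be told apart for them. Whether the cells of the 2 times differed in source is not stated, so the same limit holds for every change from 2 h to 6 h below.

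The libraries were hepatocyte RNA with traces of other cells. All 22 hepatocyte marker genes were detected, and their sum was 82243 and 81987 CPM at 2 h and 87333 and 87462 CPM at 6 h, of which Albumin mRNA took 5.29% and 5.24% of all reads at 2 h and 5.14% and 5.16% at 6 h. The 18 macrophage markers summed to 856 and 854 CPM at 2 h and 530.1 and 506 CPM at 6 h. The 18 endothelial markers summed to 413 and 344 CPM at 2 h and 217 and 202 CPM at 6 h, and the 18 stellate cell and fibroblast markers to 860 and 811 CPM and then 950.5 and 869 CPM. Red cell and lymphocyte markers were near absent, at 4.03 and 4.93 CPM at 2 h and 1.48 and 1.74 CPM at 6 h for the sum of 15 genes, with Cd3d, Cd3e, Ms4a1, Nkg7, Slc4a1 and Hbb-bt at 0 in all 4 libraries. For any marker of a minor cell type, fewer cells and less RNA per cell cannot be told apart in bulk samples.

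From 2 h to 6 h, falls outnumbered rises. Of 14488 genes tested, 4774 (33.0%) were lower at 6 h and 1194 (8.24%) were higher at an adjusted p under 0.05 in edgeR's quasi-likelihood test, and the median log2 change was -0.17. Among the genes called lower, 1175 fell by more than 1 on the log2 scale and 283 by more than 2, whereas 51 of those called higher rose by more than 1. Expressed as a half-life over the 4 h interval, relative to the library total, 283 of the fallen mRNAs had one under 2 h, 892 between 2 and 4 h, 1565 between 4 and 8 h, and 2034 above 8 h. Such half-lives are relative: where total mRNA falls during the block, each true half-life is shorter than the value given. The count of rises depended on single libraries, with 706 without the first 2 h replicate and 737 without the first 6 h replicate.

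The split into falls and rises depended on what was held constant. Library size was the total of counted reads in the main test. With TMM library sizes, which hold the trimmed mean of genes constant, the median moved up by 0.17 to -0.0043, and 3092 genes were lower and 3009 higher. With DESeq2 size factors the shift was 0.16, and 3138 genes were lower and 2957 higher. Taking the mRNAs of cytosolic ribosomal proteins as the standard lowered the median by 0.23 (7788 lower, 131 higher), and taking Gapdh, whose own share rose, lowered it by 0.36 (10145 lower, 80 higher). The genes called lower under all 5 library sizes numbered 3091, and those called higher under all 5 numbered 80. Log2 changes below are against the total of reads. A fall of under 0.17 turns into a rise with TMM or DESeq2 library sizes, and a rise of under 0.23 or 0.36 turns into a fall with the ribosomal or the Gapdh standard.

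**Figure D1:**
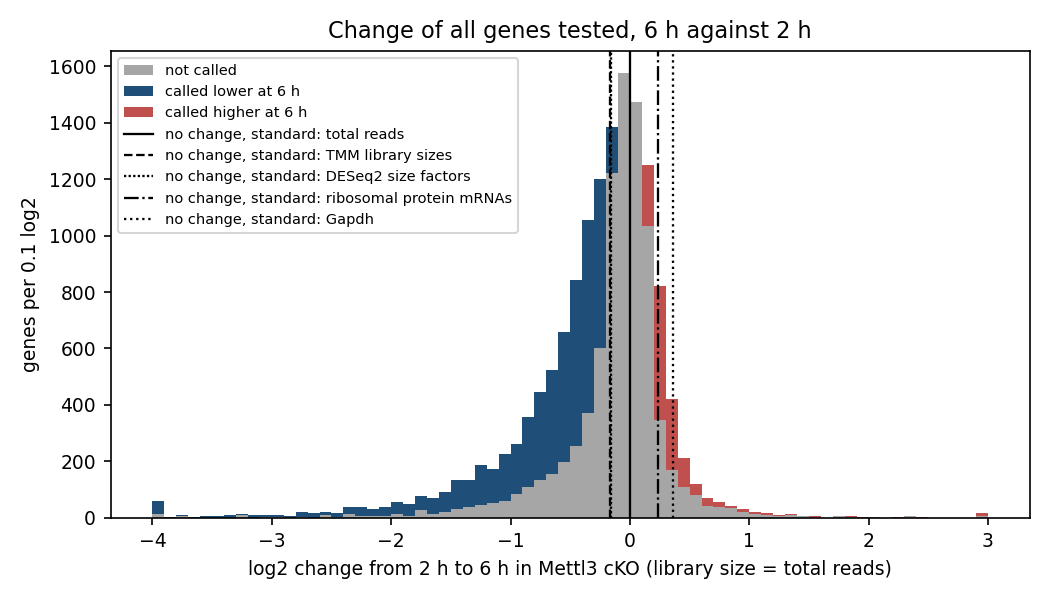
Histogram of the log2 change from 2 h to 6 h of the 14488 tested genes in Mettl3 cKO hepatocytes (x axis; genes beyond -4 or 3 are drawn in the end bins) against the number of genes per bin of 0.1 (y axis). Dark blue and red mark the 4774 genes called lower and the 1194 called higher, grey the rest, and vertical lines mark where no change would lie under each of the 5 library sizes. The TMM and DESeq2 lines nearly coincide at the left of 0, and the ribosomal protein and Gapdh lines lie at the right.

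Apart from Eno1b, the steepest falls among well-measured genes (mean of at least 10 CPM over the 4 libraries, predicted genes left out) brought together growth-response mRNAs and mRNAs known from cells other than hepatocytes. Cxcl5, a chemokine that attracts neutrophils, was at 38.99 and 36.8 CPM at 2 h and 6.22 and 6.47 CPM at 6 h. It fell by 2.58 (SE 0.12, adjusted p = 5.8e-13), a relative half-life of 1.55 h (95% interval 1.41 to 1.72 h). Cd93, a transmembrane lectin of endothelial cells, was at 44.98 and 36.1 CPM at 2 h and 8.91 and 8.16 CPM at 6 h and fell by 2.25 (SE 0.11, adjusted p = 1.2e-12). Cd36, a scavenger receptor and fatty acid transporter found on macrophages, endothelial cells and fat-laden hepatocytes, was at 24.3 and 20.3 CPM at 2 h and 5.59 and 4.42 CPM at 6 h and fell by 2.15 (SE 0.14, adjusted p = 6.8e-11). Dab2, an adaptor for endocytosis that is abundant in macrophages and sinusoidal endothelium, was at 15.95 and 16.7 CPM at 2 h and 4.54 and 3.47 CPM at 6 h and fell by 2.03 (SE 0.16, adjusted p = 2.2e-09). Adgrf5, an adhesion G protein-coupled receptor of endothelium, was at 33.4 and 27.8 CPM at 2 h and 8.39 and 6.63 CPM at 6 h and fell by 2.03 (SE 0.14, adjusted p = 2.4e-10). In each of these genes both 6 h libraries lay far below both 2 h libraries, as the choice of the largest falls makes likely. The macrophage and endothelial marker sums given above fell over the same interval, and their part in these changes was not tested.

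The other steep falls were of regulators of stress, growth and the cell cycle. Which cells held these mRNAs cannot be told in bulk samples. Atf4, the transcription factor of the integrated stress response, was at 158 and 162 CPM at 2 h and 37.1 and 35.47 CPM at 6 h. It fell by 2.14 (SE 0.06, adjusted p = 1.5e-16), a relative half-life of 1.87 h (95% interval 1.76 to 1.99 h), with the smallest SE of the steep falls described. Btg2, an antiproliferative factor that recruits the Ccr4-Not deadenylase, was at 61.47 and 64.3 CPM at 2 h and 14.1 and 15.52 CPM at 6 h. It fell by 2.09 (SE 0.08, adjusted p = 1.7e-14), a relative half-life of 1.92 h (95% interval 1.78 to 2.08 h). Net1, a guanine nucleotide exchange factor for RhoA, was at 87.9 and 92.1 CPM at 2 h and 21.3 and 21.8 CPM at 6 h and fell by 2.06 (SE 0.07, adjusted p = 3.3e-15). Cdc20, the activator of the anaphase-promoting complex, was at 19.2 and 15.3 CPM at 2 h and 4.38 and 4.16 CPM at 6 h and fell by 2.01 (SE 0.18, adjusted p = 6.5e-09). Ctgf, a matricellular growth factor and target of Yap, was at 88.3 and 82.3 CPM at 2 h and 20.52 and 22.4 CPM at 6 h and fell by 1.99 (SE 0.09, adjusted p = 2.2e-13). The libraries of the 2 times did not overlap in any of the 5, and all 5 were called lower under each of the 5 library sizes. Both follow largely from choosing the largest falls, which exceed the shift of any library size.

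The largest rises were smaller than the largest falls. Star, the carrier of cholesterol into mitochondria, was at 5.499 and 5.998 CPM at 2 h and 17.1 and 13.1 CPM at 6 h and rose by 1.39 (SE 0.15, adjusted p = 1.8e-07). Gsta2 and Gsta1, neighbouring glutathione S-transferase genes of similar sequence, went together. Gsta2 was at 7.02 and 7.55 CPM at 2 h and 18.99 and 18.2 CPM at 6 h and rose by 1.35 (SE 0.12, adjusted p = 7.7e-09). Gsta1 was at 93.2 and 93.7 CPM at 2 h and 173 and 173 CPM at 6 h and rose by 0.89 (SE 0.06, adjusted p = 5.3e-11). Slc2a2, the glucose transporter of hepatocytes, was at 6.64 and 6.16 CPM at 2 h and 14.9 and 12.9 CPM at 6 h and rose by 1.12 (SE 0.14, adjusted p = 1.6e-06). Slc38a3, a glutamine transporter of hepatocytes, was at 51.999 and 45.3 CPM at 2 h and 84.7 and 81.04 CPM at 6 h and rose by 0.77 (SE 0.08, adjusted p = 3.5e-08). Bckdhb, a subunit of the branched-chain keto acid dehydrogenase, was at 12.8 and 13.3 CPM at 2 h and 24.3 and 25.52 CPM at 6 h and rose by 0.93 (SE 0.10, adjusted p = 1.3e-07). All 6 were called higher under each of the 5 library sizes, as were 80 of the 1194 genes called higher against the total. The 6 were chosen among the largest rises, and each exceeded the shift that any of the library sizes makes, so the difference follows largely from that choice.

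Of the remaining rises, Sfn (stratifin, a p53 target of epithelial cells) was at 10.4 and 11.2 CPM at 2 h and 24.2 and 20.05 CPM at 6 h and rose by 1.03 (SE 0.13, adjusted p = 1.6e-06). Slpi, a secreted inhibitor of leukocyte proteases, was at 48.02 and 51.47 CPM at 2 h and 94.7 and 96.46 CPM at 6 h and rose by 0.94 (SE 0.09, adjusted p = 5.3e-08). Tceanc2, which shares a domain with transcription elongation factors, was at 14.54 and 13.50 CPM at 2 h and 25.1 and 26.6 CPM at 6 h and rose by 0.88 (SE 0.11, adjusted p = 7.5e-07). Cxcl9, a chemokine induced by interferon gamma, was at 7.30 and 7.28 CPM at 2 h and 14.3 and 12.1 CPM at 6 h and rose by 0.86 (SE 0.14, adjusted p = 2.6e-05). Rnaset2a, whose values are given above beside its falling neighbour Rnaset2b, rose by 1.103 (SE 0.11, adjusted p = 4.9e-08). The large mitochondrial rRNA mt-Rnr2, part of which passes poly(A) selection, was at 1119 and 1049.7 CPM at 2 h and 1889 and 1882 CPM at 6 h and rose by 0.798 (SE 0.06, adjusted p = 6.5e-10). Every gene of this group was higher in both 6 h libraries than in either 2 h library, as the choice of the largest called rises makes likely.

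**Figure D2:**
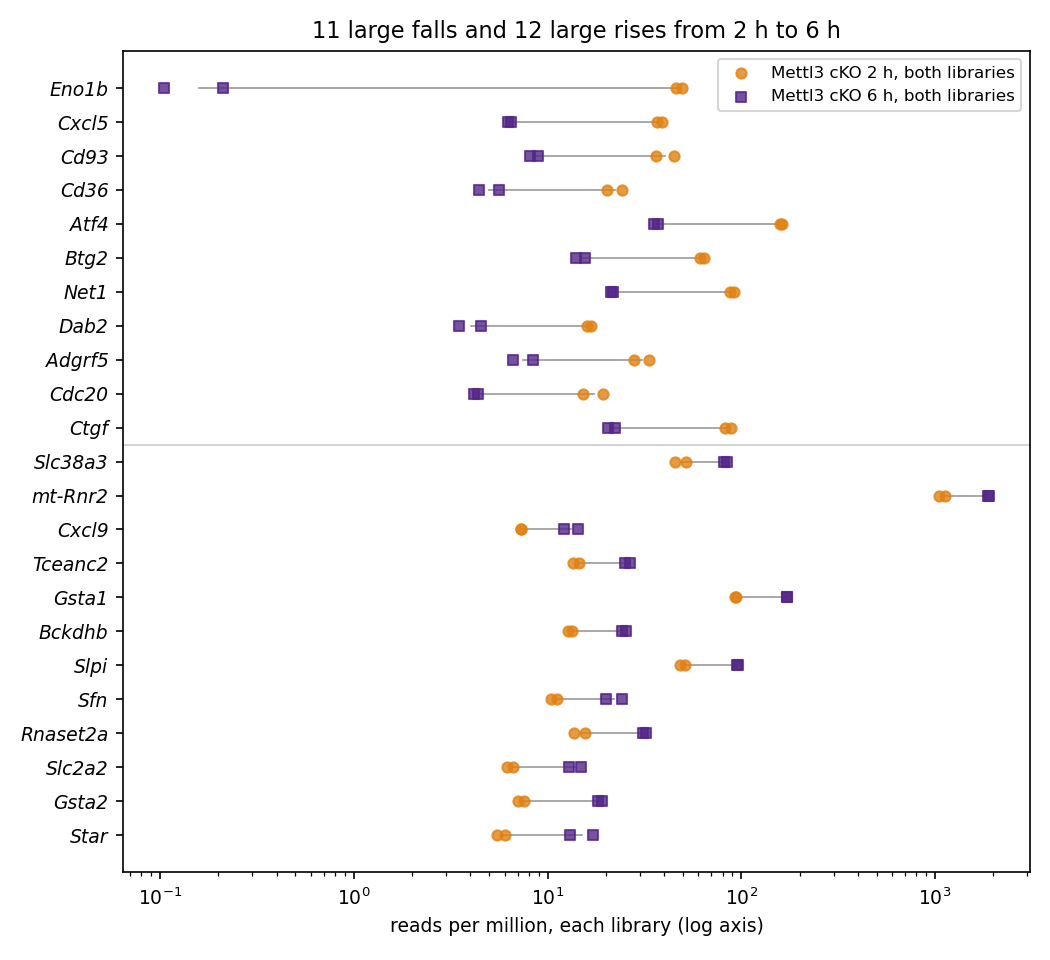
CPM in each Mettl3 cKO library (x axis, log scale) of 11 of the 12 largest falls (top) and the 12 largest rises (bottom) among genes called at an adjusted p under 0.05 with a mean of at least 10 CPM, predicted genes left out (y axis). Orange circles are the 2 libraries at 2 h, violet squares the 2 libraries at 6 h, and the grey line joins the means. The 2 times do not overlap in any of the 23 genes, which were chosen for the size of their change.

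Genes of the growth response, which serum, injury and plating induce within minutes, were mostly lower. Among all genes tested 33.0% were lower and 8.24% higher, and the counts of each list here and below stand beside these shares. Of 28 tested genes of the AP-1, Egr and other immediate early families, 20 were called lower and 0 higher, with a median log2 change of -0.67 against -0.17 for all genes. Btg2 and Ctgf, described above, were the largest falls among the well-measured ones. Of 13 Krüppel-like factors, zinc finger proteins of the early growth response, 11 were lower and 0 higher (median -0.85). Klf6 was at 144 and 146 CPM at 2 h and 49.8 and 45.52 CPM at 6 h and fell by 1.603 (SE 0.07, adjusted p = 8.3e-14). Klf5 was at 15.7 and 16.3 CPM at 2 h and 6.22 and 5.999 CPM at 6 h and fell by 1.39 (SE 0.14, adjusted p = 3.6e-08). Of 28 feedback inhibitors of MAP kinase, NF-kappaB and cytokine signalling, 21 were lower and 0 higher (median -0.68). Spred2, an inhibitor of Ras to Raf signalling, was at 22.8 and 22.7 CPM at 2 h and 9.65 and 9.42 CPM at 6 h and fell by 1.25 (SE 0.11, adjusted p = 1.0e-08). Dusp10, a phosphatase of p38 and Jnk, was at 34.1 and 38.45 CPM at 2 h and 17.2 and 15.6 CPM at 6 h and fell by 1.15 (SE 0.09, adjusted p = 1.8e-09). The 2 times did not overlap in any of the 4, each chosen for the size of its fall within its list. With TMM library sizes 17 of the 28 immediate early genes were lower and 1 was higher.

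Among mRNAs that encode the machinery of mRNA turnover, more were called lower than higher against the total of reads. With TMM library sizes 3092 of all 14488 genes were lower and 3009 higher, for comparison with the TMM counts here. Of 20 genes for AU-rich element binding proteins and Btg factors, 16 were lower and 0 higher (median -0.57), with Btg2 among the lower. Of 43 genes for deadenylation, decapping, the exosome and nonsense-mediated decay, 22 were lower and 2 higher (median -0.21, and -0.04 with TMM library sizes, where 12 were lower and 7 higher). Edc3, an enhancer of decapping, was at 15.1 and 17.8 CPM at 2 h and 9.18 and 7.79 CPM at 6 h and fell by 0.95 (SE 0.15, adjusted p = 1.6e-05). Cnot6l, a catalytic deadenylase subunit of Ccr4-Not, was at 46.9 and 39.6 CPM at 2 h and 23.7 and 24.3 CPM at 6 h and fell by 0.85 (SE 0.09, adjusted p = 1.2e-07). Among 22 genes for m6A writers, erasers and readers, 15 were lower and 1 higher (median -0.26, with TMM -0.09, where 8 were lower and 4 higher). Zc3h13, which anchors the writer complex in the nucleus, was at 30.49 and 26.4 CPM at 2 h and 10.2 and 9.89 CPM at 6 h. It fell by 1.502 (SE 0.11, adjusted p = 3.2e-10), a relative half-life of 2.66 h (95% interval 2.32 to 3.12 h). Ythdc1, the nuclear m6A reader, was at 69.8 and 72.46 CPM at 2 h and 33.7 and 34.8 CPM at 6 h and fell by 1.05 (SE 0.07, adjusted p = 4.5e-11). The higher member was Hnrnpa2b1, an RNA-binding protein with a proposed reader role, at 686 and 704 CPM at 2 h and 758 and 782 CPM at 6 h, which rose by 0.15 (SE 0.05, adjusted p = 0.026) and turned into a fall with the ribosomal protein or the Gapdh standard. Its call was lost when any one of the 4 libraries was left out.

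Transcription factors enriched in liver were lower in 15 of 26 cases and higher in 0 (median -0.40). Hnf4a, the nuclear receptor that holds hepatocyte identity, was at 29.2 and 31.4 CPM at 2 h and 24.47 and 25.2 CPM at 6 h. It fell by 0.29 (SE 0.10, adjusted p = 0.025), and the call was lost without the second 2 h replicate (-0.23) or without either 6 h replicate (-0.27 and -0.31). With TMM library sizes (-0.12) or DESeq2 size factors (-0.13) the change was also smaller and not called. Cebpa, a basic leucine zipper factor of metabolic genes, was at 46.4 and 47.50 CPM at 2 h and 30.01 and 29.05 CPM at 6 h and fell by 0.67 (SE 0.11, adjusted p = 3.1e-05). Foxa3, a forkhead factor that opens liver chromatin, was at 21.45 and 19.3 CPM at 2 h and 11.1 and 11.6 CPM at 6 h and fell by 0.84 (SE 0.12, adjusted p = 4.0e-06). Cited2, a co-activator of Hnf4a and inhibitor of hypoxia signalling, was at 261 and 259 CPM at 2 h and 120.0 and 122 CPM at 6 h. It fell by 1.11 (SE 0.06, adjusted p = 2.0e-12), a relative half-life of 3.62 h (95% interval 3.27 to 4.06 h). Notch2, the receptor that directs bile duct fate, was at 166 and 158 CPM at 2 h and 147 and 143 CPM at 6 h and fell by 0.16 (SE 0.05, adjusted p = 0.02), a change that became 0.0049 with TMM library sizes and whose call was lost without the first 2 h replicate or without either 6 h replicate. Dbp, an output factor of the circadian clock, was scarcely expressed, at 0.49 and 0.536 CPM at 2 h and 0.897 and 0.21 CPM at 6 h, and its log2 change of 0.11 (SE 0.58, adjusted p = 0.9) was not resolved at this depth.

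Markers of sinusoidal and resident immune cells showed the largest median falls among lists with more than 4 tested genes. All 18 macrophage markers were tested, and 17 were lower and 0 higher, with a median of -1.29, beside 33.0% lower among all genes. C1qa, a subunit of complement C1q made by Kupffer cells, was at 27.7 and 25.4 CPM at 2 h and 9.44 and 8.37 CPM at 6 h. It fell by 1.58 (SE 0.14, adjusted p = 6.3e-09), a relative half-life of 2.54 h (95% interval 2.15 to 3.09 h). C1qc, another subunit, was at 18.4 and 19.7 CPM at 2 h and 8.07 and 5.63 CPM at 6 h and fell by 1.48 (SE 0.15, adjusted p = 3.9e-08). Of 18 endothelial markers, 17 were lower and 1 higher (median -1.68). Cdh5, the cadherin of endothelial junctions, was at 51.9 and 40.1 CPM at 2 h and 13.98 and 11.4 CPM at 6 h and fell by 1.86 (SE 0.12, adjusted p = 7.4e-11). Stab2, the hyaluronan scavenger receptor of sinusoids, was at 17.8 and 16.1 CPM at 2 h and 5.17 and 5.31 CPM at 6 h and fell by 1.69 (SE 0.13, adjusted p = 7.1e-10). The exception was Flt4, a receptor for vascular endothelial growth factor C, at 57.2 and 51.4 CPM at 2 h and 73.8 and 68.99 CPM at 6 h, which rose by 0.396 (SE 0.07, adjusted p = 9.6e-05). Its call was lost with the ribosomal protein (0.16) or the Gapdh standard (0.036), where 17 markers were lower and 0 higher. The median of both lists was at most -1.13 under each of the 5 library sizes. Stellate cell and fibroblast markers took another course, with 4 of 18 lower and 3 higher (median -0.24, and 3 and 5 with TMM). Col1a1, a chain of type I collagen, was at 31.9 and 23.03 CPM at 2 h and 18.9 and 18.05 CPM at 6 h and fell by 0.57 (SE 0.13, adjusted p = 0.0014), and without the first 2 h replicate its fall was 0.32 and no longer called. Sparc, a matricellular protein, was at 275 and 262 CPM at 2 h and 347 and 314 CPM at 6 h and rose by 0.301 (SE 0.07, adjusted p = 0.00077). Tagln, an actin-binding protein of contractile cells, was at 126 and 134 CPM at 2 h and 170.1 and 149 CPM at 6 h and rose by 0.29 (SE 0.08, adjusted p = 0.003). Both of these rises turned into falls with the Gapdh standard, and the call of Tagln was lost without the first 6 h replicate.

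Genes of the cell cycle and of p53 were mostly lower as well. Of 41 genes for the cell cycle, DNA replication and mitosis, 28 were lower and 2 higher (median -0.53). Cdc6, a loader of the replicative helicase, was at 17.2 and 16.9 CPM at 2 h and 7.60 and 6.58 CPM at 6 h and fell by 1.26 (SE 0.12, adjusted p = 3.3e-08). The 2 higher were Ccnd1, the cyclin of G1 progression, at 18.2 and 18.3 CPM at 2 h and 24.1 and 23.52 CPM at 6 h, which rose by 0.39 (SE 0.07, adjusted p = 0.00021), and Pcna, the replication clamp, at 125 and 119.9 CPM at 2 h and 133 and 137 CPM at 6 h, which rose by 0.14 (SE 0.05, adjusted p = 0.041). The rise of Ccnd1 was 0.026 with the Gapdh and 0.15 with the ribosomal protein standard. The call of Pcna was lost when any one library was left out, and its rise turned into a fall with the ribosomal protein or the Gapdh standard. Of 28 genes of p53 and its targets, 20 were lower and 1 higher (median -0.48). Sesn2, an inhibitor of mTORC1 that p53 and Atf4 induce, was at 23.1 and 24.6 CPM at 2 h and 7.23 and 8.10 CPM at 6 h and fell by 1.64 (SE 0.10, adjusted p = 2.3e-11). Cdkn1a, the p21 cyclin-dependent kinase inhibitor, was at 184 and 188 CPM at 2 h and 79.6 and 67.51 CPM at 6 h and fell by 1.34 (SE 0.07, adjusted p = 1.7e-12). Perp, a desmosomal protein of epithelia and the one higher member, was at 188 and 182 CPM at 2 h and 204 and 223 CPM at 6 h and rose by 0.21 (SE 0.06, adjusted p = 0.0046), a call lost without the second 2 h or the second 6 h replicate and a rise that turned into a fall with the ribosomal protein or the Gapdh standard. Of 15 tested Bcl2 family genes 7 were lower and 0 higher, among them Mcl1, a short-lived survival factor, at 570.0 and 552 CPM at 2 h and 431 and 455 CPM at 6 h, which fell by 0.34 (SE 0.06, adjusted p = 0.00018).

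Of 25 genes of the integrated stress response, 13 were lower and 3 higher (median -0.26). Atf4 and Sesn2 were the largest well-measured falls. The well-measured rises were Eif4ebp1, a translation repressor, at 324 and 344 CPM at 2 h and 436 and 401 CPM at 6 h, which rose by 0.32 (SE 0.08, adjusted p = 0.0013), and Slc3a2, the heavy chain of amino acid exchangers, at 1019 and 1036 CPM at 2 h and 1273 and 1256 CPM at 6 h, which rose by 0.299 (SE 0.04, adjusted p = 9.5e-06). Both of these turned into falls with the Gapdh standard. Cytosolic heat shock chaperones split, with 8 of 20 lower and 4 higher (median -0.04, and 0.12 with TMM, where 6 were lower and 9 higher). Among all genes 33.0% were lower and 8.24% higher. Hspa8, the constitutive Hsp70, was at 790.3 and 813 CPM at 2 h and 358 and 342 CPM at 6 h. It fell by 1.196 (SE 0.05, adjusted p = 4.9e-14), a relative half-life of 3.34 h (95% interval 3.08 to 3.66 h). Hspa1b, an inducible Hsp70 gene nearly identical to Hspa1a, was at 43.995 and 45.1 CPM at 2 h and 19.46 and 19.7 CPM at 6 h and fell by 1.19 (SE 0.09, adjusted p = 1.4e-09). Stip1, the co-chaperone that joins Hsp70 and Hsp90, was at 214 and 219.8 CPM at 2 h and 269 and 265 CPM at 6 h and rose by 0.300 (SE 0.06, adjusted p = 0.00056). Hspd1, the mitochondrial chaperonin, was at 1135 and 1123 CPM at 2 h and 1301 and 1354 CPM at 6 h and rose by 0.23 (SE 0.05, adjusted p = 0.001). Both of the latter turned into falls with the Gapdh standard, Hspd1 also with the ribosomal protein standard. Of 14 SR splicing factors and their kinases 12 were lower and 0 higher (median -0.41). Srsf7 was at 56.6 and 56.8 CPM at 2 h and 30.9 and 35.2 CPM at 6 h and fell by 0.78 (SE 0.10, adjusted p = 1.5e-06). The kinase Clk1 was at 22.54 and 23.2 CPM at 2 h and 15.6 and 14.8 CPM at 6 h and fell by 0.59 (SE 0.10, adjusted p = 5.5e-05).

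Interferon-stimulated genes were lower in 23 of 39 cases and higher in 1 (median -0.33, and -0.16 with TMM, where 15 were lower and 6 higher). Oasl2, an antiviral 2′-5′-oligoadenylate synthetase-like protein, was at 34.1 and 35.6 CPM at 2 h and 17.6 and 17.3 CPM at 6 h and fell by 1.000 (SE 0.09, adjusted p = 6.9e-09). Ifi44 was at 60.55 and 58.3 CPM at 2 h and 30.2 and 29.4 CPM at 6 h and fell by 0.995 (SE 0.08, adjusted p = 8.0e-10). The higher member was Igtp, an immunity-related GTPase, at 43.02 and 45.2 CPM at 2 h and 50.6 and 52.8 CPM at 6 h, which rose by 0.23 (SE 0.08, adjusted p = 0.018), a call lost without the first 2 h or the second 6 h replicate and a rise that turned into a fall with the ribosomal protein or the Gapdh standard. Of 40 growth factor and cytokine receptors 23 were lower and 1 higher (median -0.32). Tnfrsf1b, the second receptor for tumour necrosis factor, was at 60.4 and 58.3 CPM at 2 h and 25.1 and 24.8 CPM at 6 h and fell by 1.25 (SE 0.07, adjusted p = 1.7e-11). Ifngr1, the ligand-binding chain of the interferon gamma receptor, was at 95.45 and 95.49 CPM at 2 h and 45.7 and 48.8 CPM at 6 h and fell by 1.02 (SE 0.07, adjusted p = 2.9e-10). Fgfr4, the hepatocyte receptor for the bile acid signal Fgf15, was at 27.8 and 25.8 CPM at 2 h and 38.9 and 41.6 CPM at 6 h and rose by 0.59 (SE 0.09, adjusted p = 1.2e-05), and it was called higher under all 5 library sizes. In the clock list 7 of 19 genes were lower, a share near the 33.0% of all genes, and 1 was higher. Rora, a nuclear receptor of this list, was at 18.1 and 15.7 CPM at 2 h and 8.49 and 8.79 CPM at 6 h and fell by 0.97 (SE 0.12, adjusted p = 7.9e-07).

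Hepatocyte-specific mRNAs rose as a share of all reads, with exceptions. Of 22 hepatocyte markers 12 were higher and 4 lower (median 0.23, with TMM 0.40 and with the Gapdh standard -0.13, where 0 were higher). Apoa2, an apolipoprotein of high-density lipoprotein, was at 347 and 407 CPM at 2 h and 519 and 496 CPM at 6 h and rose by 0.43 (SE 0.09, adjusted p = 0.0003). Cyp2e1, an ethanol-oxidizing cytochrome, was at 265 and 244 CPM at 2 h and 349 and 337 CPM at 6 h and rose by 0.43 (SE 0.07, adjusted p = 1.8e-05). With the Gapdh and the ribosomal protein standard the rises were 0.07 and 0.20 for Apoa2 and 0.07 and 0.19 for Cyp2e1. Among the lower markers, Cps1, which makes carbamoyl phosphate for the urea cycle, was at 80.2 and 78.1 CPM at 2 h and 48.6 and 48.8 CPM at 6 h and fell by 0.702 (SE 0.07, adjusted p = 3.9e-08). Hpd, a tyrosine-degrading dioxygenase, was at 18.4 and 18.05 CPM at 2 h and 13.03 and 11.2 CPM at 6 h and fell by 0.59 (SE 0.11, adjusted p = 9.5e-05). In the list of urea cycle and amino acid breakdown genes 11 of 30 were lower, a share near the 33.0% of all genes, and 0 higher (median -0.11, with TMM 0.06, where 6 were lower and 6 higher). The 11 became 7 without the second 2 h or the second 6 h replicate. Arg1, the arginase that closes the urea cycle, was at 25.6 and 27.4 CPM at 2 h and 14.1 and 12.4 CPM at 6 h. It fell by 0.997 (SE 0.12, adjusted p = 4.3e-07), a relative half-life of 4.01 h (95% interval 3.23 to 5.29 h). Fbp1, an enzyme of glucose production, was at 73.6 and 74.2 CPM at 2 h and 53.1 and 53.3 CPM at 6 h and fell by 0.47 (SE 0.07, adjusted p = 6.2e-06). In all 4 of these enzymes the fall was called under each of the 5 library sizes.

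Secreted proteins of the acute phase were higher in 16 of 25 cases and lower in 4 (median 0.25, and -0.11 with the Gapdh standard). Lcn2, a siderophore-binding lipocalin, was at 1024 and 1046 CPM at 2 h and 1446 and 1538 CPM at 6 h and rose by 0.53 (SE 0.06, adjusted p = 1.1e-07). Saa2, a serum amyloid A protein of a family with near-identical copies, was at 29.4 and 30.4 CPM at 2 h and 47.8 and 45.7 CPM at 6 h and rose by 0.65 (SE 0.08, adjusted p = 8.9e-07). Il1rn, the interleukin 1 receptor antagonist, was at 121 and 122 CPM at 2 h and 69.6 and 70.8 CPM at 6 h and fell by 0.79 (SE 0.06, adjusted p = 4.3e-10). Serpina3k, a member of a large cluster of similar serpins, was at 794 and 789 CPM at 2 h and 685 and 697 CPM at 6 h and fell by 0.195 (SE 0.05, adjusted p = 0.0019). The call of Serpina3k was lost with TMM library sizes (-0.028) or DESeq2 size factors (-0.033). Coagulation and complement genes were higher in 12 of 32 cases and lower in 4 (median 0.07), and the 12 became 6 and 7 without the first and the second 2 h replicate. Cytochrome P450 genes of drug and steroid metabolism were higher in 9 of 33 cases and lower in 3 (median 0.16). Both of these lists had medians below 0 with the ribosomal protein and the Gapdh standard. Genes of cholesterol synthesis and uptake split into 9 lower and 8 higher of 24 (median -0.01, and 4 and 11 with TMM), with 5 higher without the first 2 h or the first 6 h replicate. The lower share was near the 33.0% of all genes. Mvd was at 31.7 and 30.7 CPM at 2 h and 19.1 and 19.05 CPM at 6 h and fell by 0.71 (SE 0.10, adjusted p = 6.0e-06). Sqle, which opens the sterol branch, was at 143 and 139 CPM at 2 h and 97.9 and 97.2 CPM at 6 h and fell by 0.53 (SE 0.06, adjusted p = 1.7e-07). Mvk was at 36.6 and 38.3 CPM at 2 h and 54.9 and 49.6 CPM at 6 h and rose by 0.48 (SE 0.08, adjusted p = 5.2e-05). Dhcr7, of the last steps, was at 67.46 and 72.1 CPM at 2 h and 94.99 and 90.46 CPM at 6 h and rose by 0.41 (SE 0.07, adjusted p = 5.3e-05). Mvd and Mvk, enzymes of the same mevalonate pathway, thus moved apart against the total of reads, in libraries that did not overlap for either. With the Gapdh standard the rise was 0.12 for Mvk and 0.050 for Dhcr7, and that of Dhcr7 was 0.18 with the ribosomal protein standard.

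Among housekeeping mRNAs for large complexes, rises outnumbered falls against the total of reads. Of 76 cytosolic ribosomal protein genes 45 were higher and 0 lower (median 0.21, and -0.15 with the Gapdh standard), and 27 were higher without the first 2 h replicate. Rpl23a was at 136 and 146 CPM at 2 h and 225 and 216 CPM at 6 h and rose by 0.65 (SE 0.10, adjusted p = 1.3e-05). Rpl13a was at 24.6 and 23.51 CPM at 2 h and 36.9 and 33.6 CPM at 6 h and rose by 0.55 (SE 0.08, adjusted p = 9.7e-06). With the Gapdh standard the rise of Rpl13a was 0.19. Many of the ribosomal protein genes have processed pseudogenes that share their reads. Of 57 nuclear genes of oxidative phosphorylation 11 were higher and 0 lower (median 0.11), with 4 higher without the first 2 h replicate and 7 without the first 6 h replicate. Cox5b was at 65.4 and 72.2 CPM at 2 h and 89.1 and 90.6 CPM at 6 h and rose by 0.38 (SE 0.08, adjusted p = 0.00035). Its rise was 0.024 with the Gapdh and 0.15 with the ribosomal protein standard. Ndufa10 was at 119 and 127 CPM at 2 h and 163 and 148 CPM at 6 h and rose by 0.34 (SE 0.06, adjusted p = 0.00022), a rise that turned into a fall with the Gapdh standard. The median of this list was also below 0 with the ribosomal protein and the Gapdh standard. The mitochondrial genome gave the opposite. Of its 13 mRNAs 7 were tested, 4 were lower and 0 higher (median -0.23), and mt-Atp8, mt-Co2, mt-Co3, mt-Nd3 and mt-Nd4l were listed at 0 in all 4 libraries. The Nadh dehydrogenase subunit mt-Nd1 was at 1652 and 1503 CPM at 2 h and 860.1 and 824 CPM at 6 h and fell by 0.91 (SE 0.10, adjusted p = 2.0e-07), and mt-Nd2 was at 1279 and 1143 CPM at 2 h and 766 and 705 CPM at 6 h and fell by 0.72 (SE 0.10, adjusted p = 3.1e-06). The mitochondrial rRNA mt-Rnr2 rose over the same interval, as given above.

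**Figure D3:**
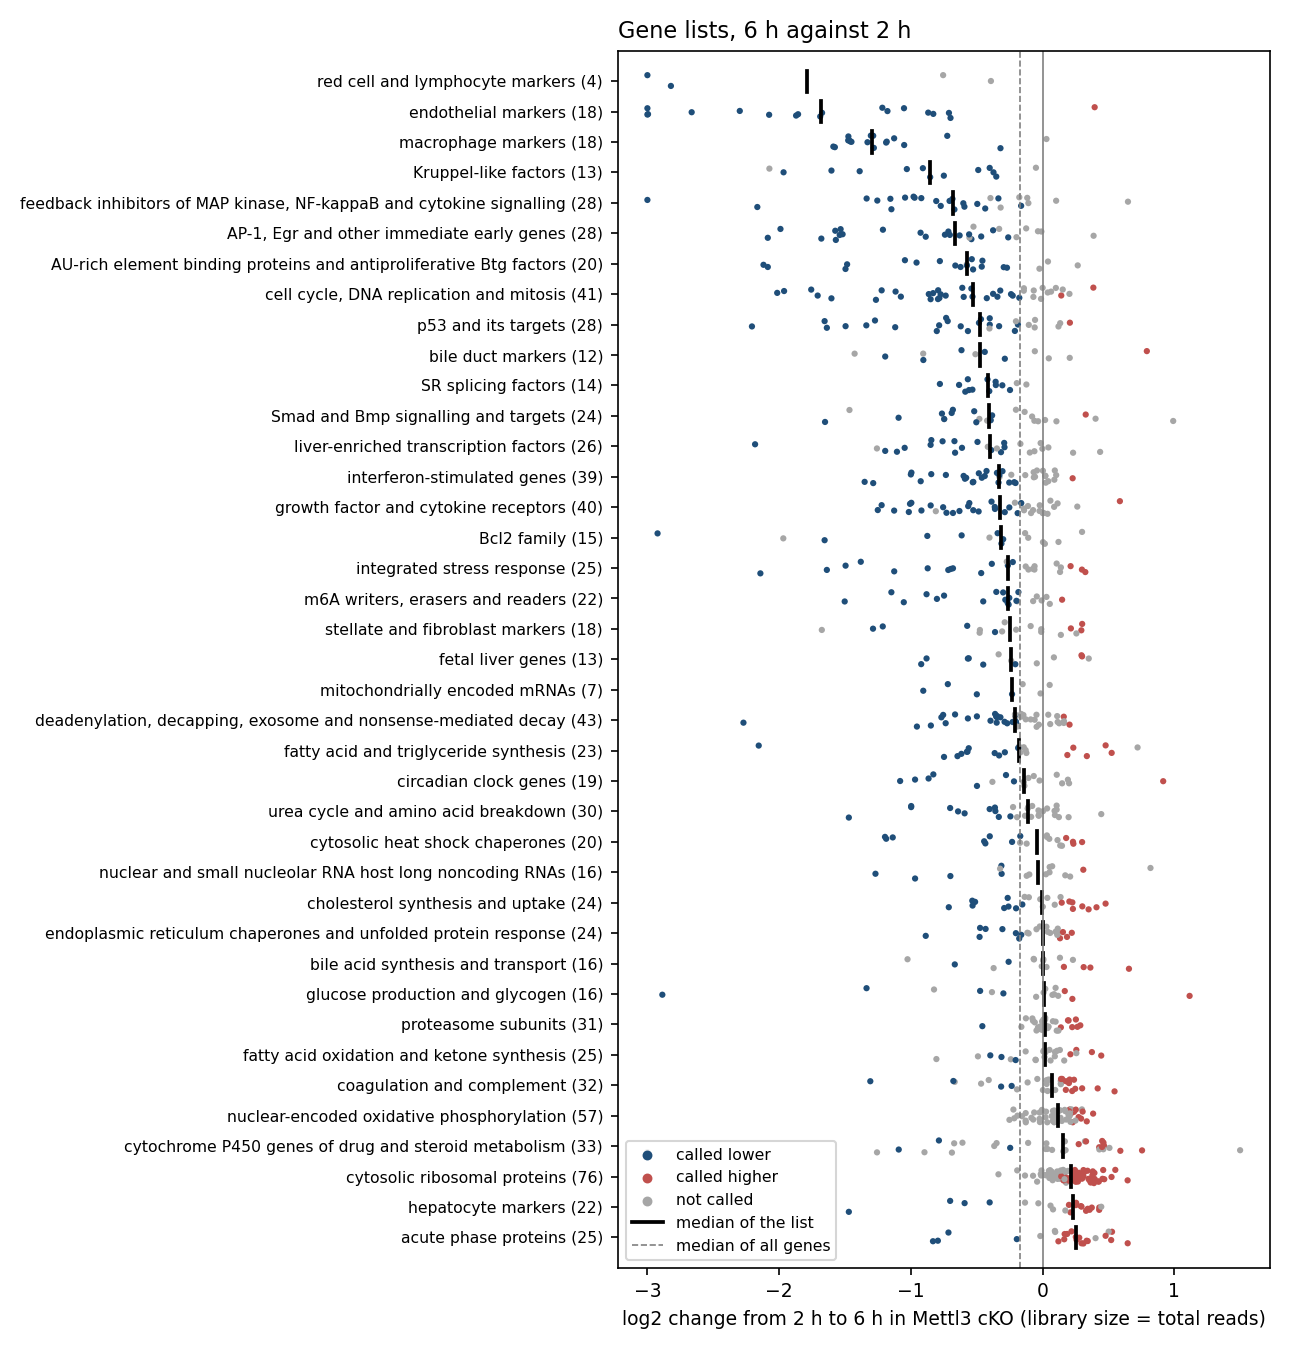
Log2 change from 2 h to 6 h in Mettl3 cKO (x axis; values beyond -3 or 1.5 are drawn at those limits) of each tested gene of the 39 lists (y axis, with the number of tested genes in brackets), ordered by list median. Dark blue points were called lower, red points higher and grey points neither, black bars are list medians, and the dashed line is the median of all genes at -0.17. Red cell and lymphocyte markers, with 4 tested genes, lie at the top with a median of -1.79. Endothelial and macrophage markers follow with -1.68 and -1.29, and acute phase proteins lie at the bottom with 0.25.

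The shape of the loss was compared with the first 2 h of the block in the same genotype, as a difference of log2 change per hour, late minus early. Of the 14488 genes, 820 (5.66%) had a more negative late slope and 1422 (9.82%) a less negative one, and the median difference was 0.00037 per hour. Both slopes share the 2 h libraries, so an error in those moves the slopes in opposite directions. The 820 became 459 without the first 0 h replicate, 406 without the first 2 h replicate and 279 without the second, and the 1422 became 907 and 723 without the first and the second 2 h replicate. The 5 most flattened slopes among named genes, which were those of Plk2, Tnfaip3, Trib1, Midn and Fosl2, began with a steep early fall. Plk2, a Polo-like kinase induced by stress, was at 306 and 296 CPM at 0 h, 42.96 and 40.4 CPM at 2 h and 31.2 and 31.9 CPM at 6 h, so that its log2 change went from -2.85 in the first 2 h to -0.401 in the next 4 h. The difference of the slopes was 1.33 per hour (SE 0.05, adjusted p = 4.2e-14). Tnfaip3 (A20), an inhibitor of NF-kappaB, was at 83.2 and 86.1 CPM at 0 h, 10.6 and 14.1 CPM at 2 h and 7.23 and 8.16 CPM at 6 h, with a difference of 1.22 per hour (SE 0.09, adjusted p = 9.9e-10). Trib1, a pseudokinase that guides the degradation of C/EBP proteins, was at 121 and 123 CPM at 0 h, 17.9 and 14.7 CPM at 2 h and 9.07 and 7.63 CPM at 6 h, with a difference of 1.21 per hour (SE 0.07, adjusted p = 3.0e-11). Midn, a nuclear protein that brings substrates to the proteasome, was at 161 and 158 CPM at 0 h, 27.1 and 27.05 CPM at 2 h and 19.4 and 17.3 CPM at 6 h, with a difference of 1.14 per hour (SE 0.06, adjusted p = 8.6e-12). Fosl2, an AP-1 subunit, was at 86.9 and 85.4 CPM at 0 h, 16.01 and 19.3 CPM at 2 h and 16.3 and 18.8 CPM at 6 h. Its late log2 change of -0.01 (SE 0.11, adjusted p = 0.96) was not past the threshold and its libraries overlapped, after a fall of -2.28 (log2) in the first 2 h.

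Among lists, 21 of 28 immediate early genes, 17 of 28 feedback inhibitors and 7 of 13 Krüppel-like factors had less negative late slopes and 0 more negative ones, beside 9.82% of all genes. So had 13 of 24 genes of Smad and Bmp signalling, 10 of 19 clock genes and 7 of 22 m6A genes. The median slope of the immediate early genes was -0.75 per hour from 0 to 2 h and -0.17 per hour from 2 to 6 h. Under the other 4 library sizes the number with a less negative slope ran from 19 to 22 of 28. Macrophage markers had the reverse course. Their median slope was 0.10 per hour at first and -0.32 per hour later. A more negative late slope was found in 15 of 18 (12 to 16 under the other library sizes), beside 5.66% of all genes. Endothelial markers fell at nearly the same median slope in both phases, at -0.39 and then -0.42 per hour, with 2 of 18 called in each direction. Interferon-stimulated genes had 15 of 39 more negative slopes and 1 less negative, and 4 and 1 with the ribosomal protein standard.

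Some mRNAs gained share in the first 2 h and lost it, or gained it more slowly, later. Of 22 hepatocyte markers 19 had a more negative late slope, as had 22 of 32 coagulation and complement genes and 17 of 25 acute phase genes. The share among all genes was 5.66%. With the ribosomal protein standard the counts of these lists were 5, 2 and 2. The median slope of the hepatocyte markers was 0.24 per hour and then 0.06 per hour. Cxcl5 was at 34.8 and 36.01 CPM at 0 h, 38.99 and 36.8 CPM at 2 h and 6.22 and 6.47 CPM at 6 h, level for 2 h before its fall, and the difference of slopes was -0.69 per hour (SE 0.07, adjusted p = 1.7e-07). Clec4n, the Dectin-2 receptor of macrophages, was at 14.01 and 14.1 CPM at 0 h, 16.4 and 18.48 CPM at 2 h and 4.96 and 4.68 CPM at 6 h, with a difference of -0.62 per hour (SE 0.09, adjusted p = 2.0e-05). Lars2, the mitochondrial leucyl-tRNA synthetase, was at 38.1 and 50.4 CPM at 0 h, 99.3 and 125 CPM at 2 h and 101 and 112 CPM at 6 h. It gained in the first 2 h and its late log2 change of -0.08 (SE 0.13, adjusted p = 0.69) was not past the threshold, with libraries that overlapped, and the difference of slopes was -0.69 per hour (SE 0.09, adjusted p = 9.5e-06). Defb1, an epithelial defensin, was at 11.48 and 12.9 CPM at 0 h, 24.3 and 24.9 CPM at 2 h and 19.46 and 17.997 CPM at 6 h, with a difference of -0.61 per hour (SE 0.06, adjusted p = 3.1e-07). Eno1b had the most negative difference of all named genes, and its loss is that of a locus described above.

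**Figure D4:**
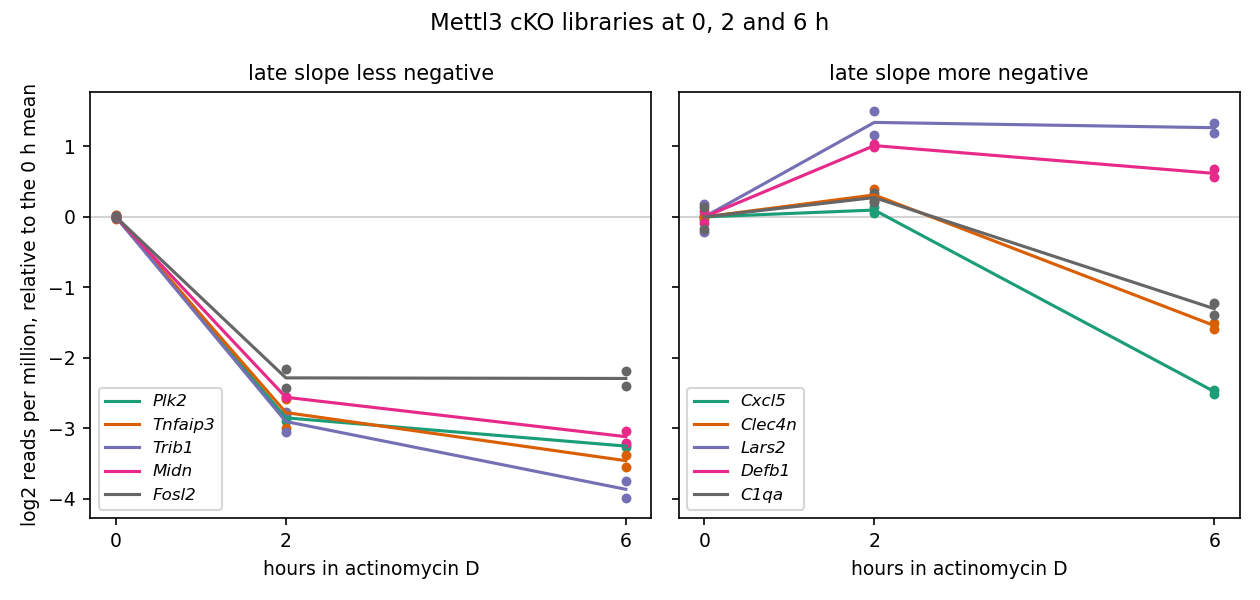
Log2 CPM relative to the 0 h mean (y axis) at 0, 2 and 6 h in actinomycin D (x axis) in the Mettl3 cKO libraries. Points are single libraries and lines join the means of 2. On the left are the 5 genes with the most flattened late slopes, which reach between -2.28 and -2.91 by 2 h, and on the right are Cxcl5, Clec4n, Lars2, Defb1 and the macrophage marker C1qa, which are at or above their starting level at 2 h and then fall, Lars2 within the spread of its libraries.

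The same interval was set against Control. The log2 change from 2 h to 6 h was higher in Mettl3 cKO than in Control for 3804 genes (26.3%) and lower for 548 (3.78%), and the median difference was 0.18. With TMM library sizes 2610 were higher and 1483 lower, and with DESeq2 size factors 2306 and 2088. The comparison rests on Control 6 h libraries that carry Xist and no Y-linked mRNA, unlike Control at 2 h, so genotype and the source of those cells cannot be told apart. Among well-measured genes other than predicted ones, 4 of the 5 largest positive differences were of the Y-linked genes Eif2s3y, Ddx3y, Kdm5d and Uty, which the Mettl3 cKO libraries kept. Eif2s3y had 932 and 922 reads at 2 h and 1001 and 1031 at 6 h in Mettl3 cKO, and 0 in both Control 6 h libraries. The fifth was H2-Ab1, a class II antigen-presenting chain, at 12.52 and 12.2 CPM at 2 h and 8.18 and 7.63 CPM at 6 h in Mettl3 cKO, a log2 change of -0.65 against -4.103 in Control. The most negative differences under the same limits, after Eno1b, were of Erdr1, of Igf2, the fetal growth factor (109 and 112 CPM at 2 h and 76.7 and 72.46 CPM at 6 h, a log2 change of -0.57 against 2.08 in Control), of the nuclear long noncoding RNA Neat1 (30.9 and 34.9 CPM at 2 h and 19.1 and 21.4 CPM at 6 h, -0.700 against 0.81) and of Derl3, a factor that clears misfolded proteins from the endoplasmic reticulum (80.97 and 83.3 CPM at 2 h and 56.54 and 61.4 CPM at 6 h, -0.48 against 0.96).

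For the lists that fell most in Mettl3 cKO, Control fell further. Of all genes, 26.3% had a higher and 3.78% a lower change in Mettl3 cKO than in Control. The median log2 change of the macrophage markers was -1.29 in Mettl3 cKO and -2.98 in Control, and 17 of 18 differed in that direction. Endothelial markers had -1.68 and -3.11 (10 of 18 called higher in Mettl3 cKO), and immediate early genes had -0.67 and -1.83 (18 of 28 higher, 1 lower). Interferon-stimulated genes had -0.33 and -1.15 (30 of 39 higher), and m6A genes -0.26 and -0.89 (12 of 22 higher and 0 lower, but 6 and 2 with DESeq2 size factors). Cell cycle genes had medians of -0.53 and -0.55, with 6 of 41 called higher and 2 lower, but 4 higher and 9 lower with TMM library sizes and 4 and 11 with DESeq2 size factors. Some regulators of the liver differed between the genotypes in either direction. The change of Cited2 was -1.11 in Mettl3 cKO and -2.64 in Control, a difference of 1.54 (SE 0.12, adjusted p = 1.1e-09), and that of Notch2 was -0.16 and -1.66, a difference of 1.499 (SE 0.09, adjusted p = 1.6e-11). Hnf4a went the other way, with -0.29 and 0.19, a difference of -0.48 (SE 0.14, adjusted p = 0.0091). Atf4 fell further in Mettl3 cKO, with -2.14 against -1.62, a difference of -0.52 (SE 0.09, adjusted p = 0.00011). Of the 30 urea cycle and amino acid genes 11 were called lower in Mettl3 cKO and 3 higher, among the lower ones Arg1 (-0.997 against -0.07) and Cps1 (-0.702 against 0.09).

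**Figure D5:**
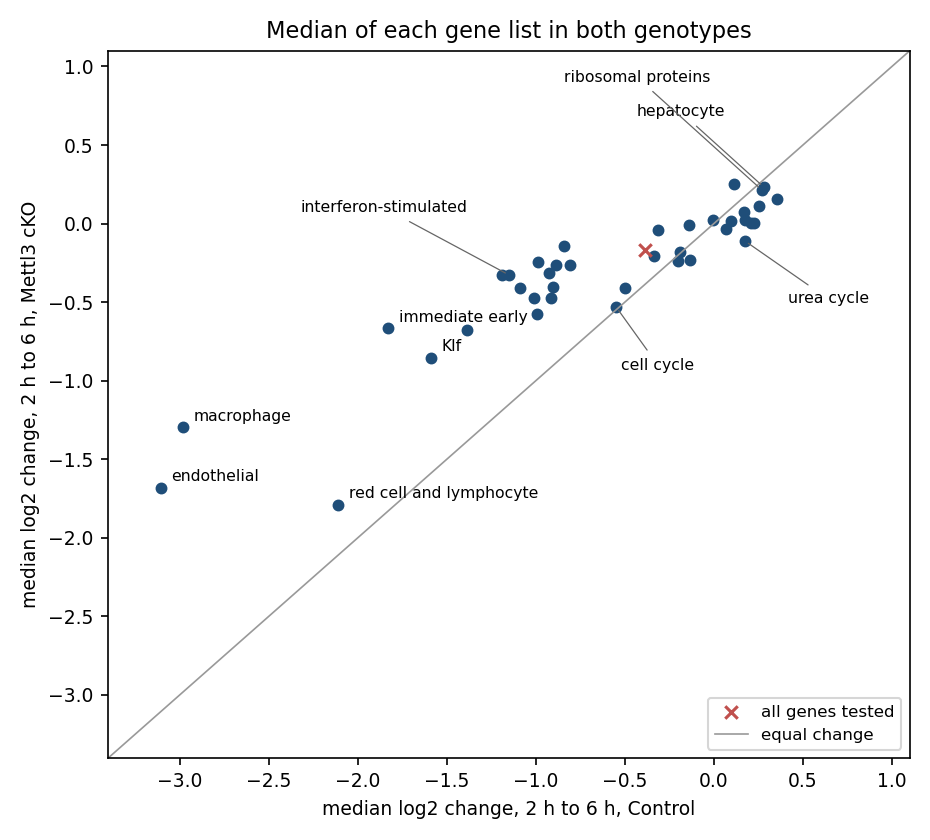
Median log2 change from 2 h to 6 h of each of the 39 gene lists in Control (x axis) and in Mettl3 cKO (y axis), both against the total of reads. Each point is 1 list, the cross marks all 14488 genes (-0.39 and -0.17), and the line marks equal change. Macrophage and endothelial markers lie far above the line, with macrophage medians of -2.98 (Control) and -1.29 (Mettl3 cKO) and endothelial medians of -3.11 and -1.68.

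Transcripts that fell and transcripts that rose differed in length. In the Gencode annotation (release M21, mm10), the 4661 protein-coding genes called lower had a median transcript of 3906 bases with a 3′ UTR of 1470 bases, the 7477 called neither had 2822 and 979 bases, and the 1153 called higher had 2208 and 726 bases. The median GC content of the 3′ UTR was 43.5%, 44.8% and 45.8% in the same order. The heptamer TATTTAT, the core of AU-rich elements, was searched on the sense strand of the 3′ UTR and was found at least once in 37.3% of lower, 26.2% of neither and 20.5% of higher genes. A longer 3′ UTR holds more words by length alone. In 3′ UTRs under 500 bases the shares in the same order were 9.06%, 6.96% and 5.05%, in those of 500 to 1000 bases 23.7%, 17.4% and 17.7%, in those of 1000 to 2000 bases 36.5%, 30.7% and 26.1%, and in those of at least 2000 bases 57.6%, 52.3% and 50.5%. The nonamer TTATTTATT, which contains the heptamer, was found in 9.93% of lower, 7.17% of neither and 4.34% of higher genes and in 7.89% of all 13291. The 1098 protein-coding genes called lower by more than 1 on the log2 scale had a median 3′ UTR of 1188 bases, shorter than that of all genes called lower. In these the heptamer was found in 33.1% and the nonamer in 7.92%, the latter near the share of all 13291. The steepest falls thus did not extend the differences given above. These are descriptions of the longest annotated protein-coding transcript of each gene, without a test. Which isoforms the cells held was not determined.

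Nonamer sites of some genes described above are shown to place that word in its sequence, in capitals, with 9 bases on either side, as read from Gencode transcripts 5′ to 3′ on the mRNA strand. Cd36, Klf5, Edc3 and Rora fell from 2 h to 6 h, Plk2 and Fosl2 lost most of their mRNA before 2 h, and Star rose while carrying the same word.
Cd36 (mm10, chr5:17782315-17782341, minus strand): cacagtatgTTATTTATTgtattttat
Klf5 (chr14:99314660-99314686, plus strand): gttttatcaTTATTTATTttgtggtaa
Edc3 (chr9:57750554-57750580, plus strand): gcttctagcTTATTTATTggcttgcct
Rora (chr9:69381430-69381456, plus strand): tacagttttTTATTTATTtgccttttt
Plk2 (chr13:110400735-110400761, plus strand): ataaactttTTATTTATTacagcccca
Fosl2 (chr5:32156872-32156898, plus strand): tttattttaTTATTTATTttaaatgtt
Star (chr8:25814972-25814998, plus strand): aacatgtacTTATTTATTgaagtctta
Each lies in the annotated 3′ UTR and is the only nonamer there. The match says only that these letters are present, and the late log2 changes of the 7 genes ran from -2.15 to 1.39. Among genes whose sites are not shown, the word also occurs in Cnot6l (-0.85), Tnfaip3 (-0.68), Eif4ebp1 (0.32), Tgfb2 (0.33) and Elovl6 (0.48). It was thus present in mRNAs that fell and in mRNAs that rose.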

How the data were processed

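The values deposited by the authors were whole-number counts of reads for 48440 genes in 12 libraries, not normalized (16952084 to 20914516 reads each). The authors prepared unstranded poly(A) libraries, so that overlapping and antisense genes cannot be told apart, and aligned 150 bp reads with STAR 2.5.3a (mm10). Unique alignments over Gencode exons were tallied with featureCounts 2.0.1. The Gencode release they used is not stated in the sources read. Positions, 3′ UTRs and sequences were taken from Gencode M21, and sequences were read by script. For 3′ UTRs and sequences the longest annotated protein-coding transcript of each gene was used.

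Low-count genes were dropped with filterByExpr (6 groups, at least 10 reads, total of 15 or more). The quasi-likelihood test of edgeR 4.0.16 (R 4.3.3) was fitted over all 12 libraries, with library sizes equal to total counts, Benjamini-Hochberg adjustment over all 14488 genes and a threshold of 0.05. The contrasts were 6 h minus 2 h in Mettl3 cKO, the slope from 2 to 6 h minus the slope from 0 to 2 h, and the change in Mettl3 cKO minus that in Control. Errors are standard errors, and intervals are at 95%. The fit was tested on simulated data. Alternatives were DESeq2 1.42.0, other library sizes and filters, fits on fewer groups, a replicate block and leaving out each library. Genes were named by rule: 6 genes of the study, the 12 largest called changes each way with a mean of at least 10 CPM, up to 2 each way in a list, the 5 largest of the other contrasts each way, and genes with at least 100 reads at one time and at most 10 at the other. Predicted genes were left out of naming, and a few named items are not reported here. The genes and the 39 lists were chosen with earlier results of these data known.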

Additional observations from a re-analysis of the deposited data

Results flagged for a closer look

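The change from 2 h to 6 h differed between the genotypes, by the test of the difference itself, for 548 genes with a lower and 3804 with a higher change in Mettl3 cKO than in Control. The values that follow are log2 differences, Mettl3 cKO minus Control, each past an adjusted p of 0.05 in edgeR's quasi-likelihood test. They are against the total of reads, where the median difference over all genes tested was 0.18. That median was 0.026 with TMM library sizes and -0.033 with DESeq2 size factors. Small positive differences, such as those of Gsta1, Slc3a2, Cyp2e1, Mvk and Eno1, are thus near the shift between library sizes.

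Among regulators of the liver and the m6A writer gene itself the difference was -0.48 for Hnf4a, 0.596 for Mettl3, 1.24 for Cebpa, 1.499 for Notch2 and 1.54 for Cited2. Among the steep falls the difference was -0.52 for Atf4, 0.998 for Ctgf, 1.11 for Net1, 1.26 for Cxcl5, 1.28 for Cd93, 1.36 for Dab2, 1.56 for Adgrf5 and 1.57 for Cd36. Among the largest rises the difference was 0.23 for Gsta1, 0.45 for Slc38a3, 0.48 for Cxcl9, 0.56 for Gsta2, 0.72 for Bckdhb, 0.82 for Rnaset2a, 1.16 for Tceanc2, 1.198 for Slc2a2, 1.61 for Slpi and 1.97 for Sfn. Among markers of cells other than hepatocytes the difference was 0.46 for Flt4, 1.05 for Sparc, 1.08 for Tagln, 1.13 for Col1a1, 1.24 for C1qc, 1.43 for Cdh5, 1.54 for Stab2, 1.57 for C1qa, 2.01 for Clec4n and 3.46 for H2-Ab1. Among growth-response and decay genes the difference was 0.37 for Cnot6l, 0.62 for Clk1, 0.64 for Midn, 0.69 for Edc3, 0.77 for Fosl2, 1.16 for Trib1, 1.16 for Plk2 and 1.22 for Tnfaip3. Among stress, survival and cell cycle genes the difference was -1.44 for Derl3, -0.38 for Hspa1b, 0.23 for Slc3a2, 0.35 for Ccnd1, 0.41 for Cdkn1a, 0.73 for Sesn2 and 1.25 for Mcl1. Among interferon genes and receptors the difference was 0.598 for Fgfr4, 0.63 for Oasl2, 0.900 for Ifngr1, 1.03 for Igtp and 1.45 for Tnfrsf1b. Among hepatocyte enzymes and secreted proteins the difference was -0.93 for Arg1, -0.89 for Hpd, -0.79 for Cps1, -0.78 for Serpina3k, -0.51 for Fbp1, -0.48 for Saa2, 0.26 for Cyp2e1, 0.31 for Mvk, 0.62 for Sqle and 0.76 for Il1rn. In RNA of mitochondria, a nuclear noncoding RNA and a fetal growth factor the difference was -2.64 for Igf2, -1.51 for Neat1, 0.39 for mt-Nd2 and 0.48 for mt-Nd1. At the loci that were missing at one time, and at sex-linked genes and near-identical copies the difference was -8.37 for Eno1b, -5.75 for Gm4735, -3.17 for Erdr1, 4.93 for Gm21887, 10.17 for Uty, 11.76 for Kdm5d, 12.42 for Ddx3y and 13.13 for Eif2s3y. For Rnaset2b and Eno1 it was -0.896 and 0.19 respectively. The fitted values of the Y-linked genes, with at most 1 read in a Control 6 h library, depend on the prior count and measure no fold. The Control 6 h libraries carried Xist and no Y-linked mRNA, unlike Control at 2 h, and the part of that in the other differences was not tested. No group of 2 libraries could be examined for a single deviating sample.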

How the results depend on the processing

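The counts of falls and rises followed the library size. Against 4774 lower genes, there were 3092 with TMM library sizes, 3138 with DESeq2 size factors, 2636 in the DESeq2 Wald test, 7788 with the ribosomal protein mRNAs and 10145 with Gapdh as the standard, and 1175 past an absolute log2 difference of 1. Against 1194 higher genes there were 3009, 2957, 2574, 131, 80 and 51 in the same order. Leaving out 1 library gave 3726 to 3966 lower and 706 to 873 higher. Of the slopes, 820 were more negative late, 1265 with DESeq2 size factors, 235 with the ribosomal protein mRNAs, 479 with Gapdh, 366 past a difference of 0.25 per hour and 279 to 894 without 1 library, and 1422 were less negative, 2524 with the ribosomal protein mRNAs, 944 past 0.25 per hour and 723 to 1288 without 1 library. Against Control, 548 changes were lower, 1483 with TMM, 2088 with DESeq2 size factors, 1740 in the Wald test, 328 with the ribosomal protein mRNAs, 105 past a difference of 1 and 381 to 701 without 1 library, and 3804 were higher, 2306 with DESeq2 size factors, 1936 in the Wald test, 2412 with Gapdh, 1119 past 1 and 3089 to 3758 without 1 library. A filter of at least 100 reads, no filter and fits on fewer groups kept all 6 counts within 1.5 times.

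Among named genes, changes turned sign with the Gapdh standard for Ndufa10 (-0.025), Eif4ebp1 (-0.035), Sparc (-0.059), Stip1 (-0.060), Slc3a2 (-0.061), Tagln (-0.066), Hspd1 (-0.13), Igtp (-0.13), Perp (-0.15), Hnrnpa2b1 (-0.21), Pcna (-0.22), Ddx3y (-0.25), Dbp (-0.25) and Eif2s3y (-0.26), and with the ribosomal protein standard for Hspd1 (-0.00062), Igtp (-0.0040), Perp (-0.028), Hnrnpa2b1 (-0.085), Pcna (-0.093), Dbp (-0.12), Ddx3y (-0.13) and Eif2s3y (-0.14). With TMM, DESeq2 size factors and the Wald test respectively, Notch2 turned to 0.0049, 0.00027 and 0.00090, Lars2 to 0.092, 0.087 and 0.088, Kdm5d to 0.12, 0.11 and 0.11, and Fosl2 to 0.16, 0.15 and 0.15. Without 1 library Fosl2 ran from -0.14 to 0.13, Lars2 from -0.23 to 0.10, Kdm5d from -0.13 to 0.026 and Dbp from -1.26 to 0.80. TMM, DESeq2 size factors and the Wald test each ended the calls of Hnf4a (-0.12, -0.13 and -0.13) and Serpina3k (-0.028, -0.033 and -0.032), the Wald test that of Defb1 (-0.23), and the fit with no filter those of Notch2 and Pcna. The cause was not tested, beyond the shift that each library size makes by construction.

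No pairing of libraries by replicate number was seen: replicate deviations correlated at -0.17 to 0.06 across groups, and at -0.0052 between 2 h and 6 h in Mettl3 cKO. The check cannot exclude a shared source of libraries with the same number, because spread that arises in each library alone would hide it. A replicate block gave 4642 lower and 1115 higher genes, 677 and 1328 slopes, and 499 and 3684 differences from Control. Of the named genes, the block ended the call of Pcna. Depth limits what can be said of genes such as Dbp, with a log2 standard error of 0.58.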

Other observations

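Further gene lists were split between falls and rises from 2 h to 6 h in Mettl3 cKO, beside 33.0% lower and 8.24% higher among all genes. Bile duct markers were lower in 5 of 12 tested cases and higher in 1 (median log2 change -0.47), genes of Smad and Bmp signalling in 10 and 1 of 24 (-0.41), and fetal liver genes in 6 and 2 of 13 (-0.24). Genes of fatty acid and triglyceride synthesis were lower in 11 of 23 cases and higher in 5 (-0.18), and endoplasmic reticulum chaperones and genes of the unfolded protein response in 8 and 4 of 24 (0.0044, but 5 lower and 12 higher with TMM library sizes and 24 and 0 with the Gapdh standard). Red cell and lymphocyte markers were lower in 2 of 4 tested cases and higher in 0.

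Lists of metabolic enzymes and of the proteasome had medians near 0. Fatty acid oxidation and ketone synthesis genes were lower in 3 of 25 cases and higher in 4, bile acid synthesis and transport genes in 2 and 4 of 16, and genes of glucose production and glycogen in 4 and 3 of 16. Proteasome subunits were higher in 7 of 31 cases and lower in 1, with 3 higher without the first 2 h replicate and 4 without the second 6 h replicate. With TMM library sizes the lower and higher genes were 1 and 14 in fatty acid oxidation, 0 and 5 in bile acid genes, 3 and 6 in glucose production and 1 and 21 in the proteasome. Nuclear and small nucleolar RNA host long noncoding RNAs were lower in 5 of 16 cases and higher in 1, and in 3 and 4 with TMM library sizes. The medians of the fatty acid oxidation, bile acid, glucose and proteasome lists were below 0 with both the ribosomal protein and the Gapdh standard.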
